A study of Mus musculus with 6 samples.

Results

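The genes described here carry dietary fat through the duodenal epithelium or burn it: 25 genes of lipid absorption (uptake, triglyceride resynthesis, chylomicron assembly and sterol transport) and 15 genes of fatty acid oxidation and Ppar regulation. They were taken by symbol from a list of 40, and 38 of the 19938 genes named on the arrays matched, 23 for absorption and 15 for oxidation. The probe set of Apoc2 carries several symbols and Soat2 is not listed in the annotation used, so neither gene has a value here. RNA came from dissected, non-tumour duodenum of mice of C57Bl6 background, on 6 Affymetrix whole-transcript arrays, 1 per sample. Of these, 3 came from Apc+/- mice and 3 from Apc+/-Atg7-/- mice. Both genotypes carry 1 intact and 1 lost allele of Apc, the restraint on Wnt signalling, and the second also lacks Atg7, the E1-like enzyme needed to build autophagosomes. The labels give no age, no sex, no agent and no feeding state, and neither the deleted part of Atg7 nor the cells that lost it. The animals are not named either, so the p-values reflect only how far these samples spread.

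After a meal, enterocytes take up fatty acids and monoglycerides, rebuild triglyceride at the endoplasmic reticulum, load it onto apolipoprotein B with the microsomal triglyceride transfer protein, and export the particles to lymph as chylomicrons. Autophagy can also deliver stored lipid droplets to lysosomes. Fatty acids entering the epithelium are ligands of the nuclear receptors Ppara, Ppard and Pparg, which pair with Rxr and raise transcription of genes for fatty acid binding, mitochondrial and peroxisomal oxidation and droplet coating.

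Promoter sequence was set beside the values for a few members, read from RefSeq windows of build GRCm38.p6. Mboat1 is shown because its genotypes stood furthest apart. Fabp1 is shown because it is the only measured member whose window holds the direct repeat bound by Ppar with Rxr and by Hnf4-type receptors, here searched as AGGNCANAGGNCA on both strands and printed in capitals. The start of Hadhb and the stretch between Abcg5 and Abcg8 are shown because each is shared by a pair of divergently transcribed members, whose starts lie 272 bases apart (Hadha and Hadhb) and 109 bases apart (Abcg5 and the nearer of the Abcg8 starts). All 4 are on the plus strand, at chr13:30136240-30136450 (Mboat1), chr6:71199629-71199878 (Fabp1), chr5:30155003-30155252 (Hadhb) and chr17:84683012-84683120 (Abcg5 to Abcg8).
Mboat1: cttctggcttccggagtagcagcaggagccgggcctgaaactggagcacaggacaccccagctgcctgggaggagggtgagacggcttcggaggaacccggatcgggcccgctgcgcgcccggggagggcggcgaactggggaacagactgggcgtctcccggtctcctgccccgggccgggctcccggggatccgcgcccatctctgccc
Fabp1: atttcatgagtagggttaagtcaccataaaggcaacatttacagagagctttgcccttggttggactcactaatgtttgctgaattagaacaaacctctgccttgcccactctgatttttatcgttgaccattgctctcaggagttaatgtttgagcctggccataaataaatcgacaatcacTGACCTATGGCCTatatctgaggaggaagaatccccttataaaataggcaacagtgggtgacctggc
Hadhb: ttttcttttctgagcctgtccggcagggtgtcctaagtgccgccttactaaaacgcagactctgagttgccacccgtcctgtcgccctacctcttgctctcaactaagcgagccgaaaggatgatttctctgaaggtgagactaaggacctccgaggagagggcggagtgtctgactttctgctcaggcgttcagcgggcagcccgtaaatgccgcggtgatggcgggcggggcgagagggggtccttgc
Abcg5-Abcg8: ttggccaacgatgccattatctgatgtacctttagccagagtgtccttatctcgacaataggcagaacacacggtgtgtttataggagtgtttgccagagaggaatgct
The match in Fabp1 begins 67 bases before the start and reads AGGCCATAGGTCA on the other strand. Among all 32851 RefSeq windows, each of 300 bases (250 before and 50 after a start), 125 (0.381%) hold the motif. Of the 31 members with a window, Fabp1 and the unmeasured Apoc2 hold it, that is 1 of the 30 measured members with a window. A match is only a run of letters, and its absence says nothing about binding.

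No member passed an adjusted p of 0.05 by limma, fitted over all 19938 genes with Benjamini-Hochberg adjustment. Across all genes 14 (0.0702%) were higher and 8 (0.0401%) lower in Apc+/-Atg7-/- at that threshold. Of the 38 measured members, 15 stood higher and 23 lower, and the median difference was -0.03 on the log2 scale, beside -0.02 for all genes. At an unadjusted p under 0.05, 3 members were higher (Mboat1, Pparg and Fabp6) and 3 lower (Cd36, Abca1 and Apob), against 2.38% and 2.73% of all genes. The genotypes did not overlap for 4 members that were higher (the same 3 and Acadl) and 3 that were lower, against 4.81% and 5.23% of all genes. With 3 arrays a side an exact permutation test cannot give a p below 0.1. For 34 of the 38 members (89.5%) the 95% interval of the difference lay within 2-fold in either direction. For 26 (68.4%) it lay within 1.5-fold. The shares were larger over all genes, at 99.1% and 94.9%. The 4 members whose interval reached beyond 2-fold were Cd36, Dgat2, Mboat1 and Apoc3.

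**Figure D1:**
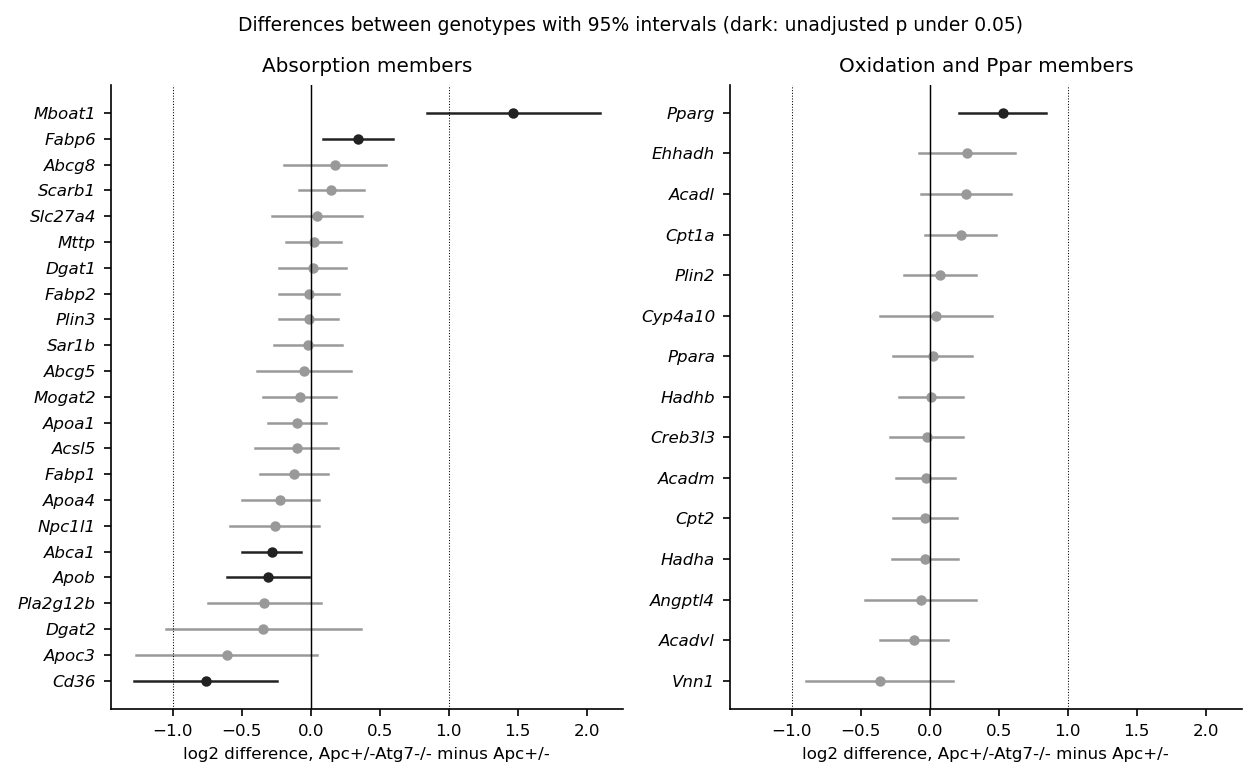
Difference between genotypes for each of the 38 measured members (log2 signal, Apc+/-Atg7-/- minus Apc+/-, 3 arrays each) with limma's 95% interval, absorption on the left and oxidation with Ppar genes on the right; dotted lines mark 2-fold. Most intervals cross 0, Mboat1 stands at 1.47 and Cd36 at -0.76.

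Among absorption members 7 were higher and 16 lower, with differences from -0.76 to 1.47 and a median of -0.08, where 56.8% of all genes were lower. Among oxidation members 8 were higher and 7 lower, from -0.36 to 0.53, with a median of 0.01. Whether the classes differ was not tested. Both medians depended on single arrays. With 1 array left out, the absorption median ran from -0.147 (without Apc+/- replicate 3) to 0.0191 (without Apc+/- replicate 1), and it was -0.0363 and -0.0266 without Apc+/-Atg7-/- replicates 2 and 3. The oxidation median ran from -0.0513 to 0.0692 and was below 0 when replicate 1 or 3 of Apc+/- or replicate 1 of Apc+/-Atg7-/- was missing. Without Apc+/- replicate 2 the absorption members at an unadjusted p under 0.05 numbered 3 instead of 5. Over all genes, 13 instead of 22 then passed an adjusted p of 0.05.

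Mboat1 had the largest difference of any member. Its product is a membrane-bound acyltransferase that puts an acyl chain back on lysophospholipids, so among the resynthesis genes it acts on membrane lipid and not on the main triglyceride route. Its probe set (10404359) read 6.68, 6.03 and 6.24 in Apc+/- replicates 1 to 3 and 7.17, 7.72 and 8.46 in Apc+/-Atg7-/- replicates 1 to 3 (log2 signal, as all levels below). All 3 Apc+/-Atg7-/- arrays lay above all 3 Apc+/- arrays, and the highest was replicate 3. The means were 6.32 ± 0.33 and 7.78 ± 0.64 (SD, n = 3), a difference of 1.47 (SE 0.28, 95% interval 0.84 to 2.09), or 2.77-fold. It ranked 48th by p among all genes, with an adjusted p of 0.174 by limma. Leaving out 1 array at a time gave 1.13 to 1.77, with the lower value when Apc+/-Atg7-/- replicate 3 was left out.

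The triglyceride-forming enzymes stood nearer to 0. Mogat2, which acylates monoglyceride in the enterocyte, averaged 8.42 ± 0.21 and 8.34 ± 0.10 in the 2 genotypes and differed by -0.08 (SE 0.12). Dgat1, which makes triglyceride from diglyceride, differed by 0.01 (SE 0.11), and Plin3, a coat protein of nascent lipid droplets, by -0.02 (SE 0.09). Dgat2, the other diglyceride acyltransferase and a chromosomal neighbour of Mogat2, varied more between arrays than any other absorption member within Apc+/- duodenum. It read 10.20, 9.80 and 8.82 in Apc+/- and 8.94, 9.73 and 9.11 in Apc+/-Atg7-/- arrays. The genotypes overlapped over most of that range, and the difference was -0.34 (SE 0.32, 95% interval -1.05 to 0.36).

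**Figure D2:**
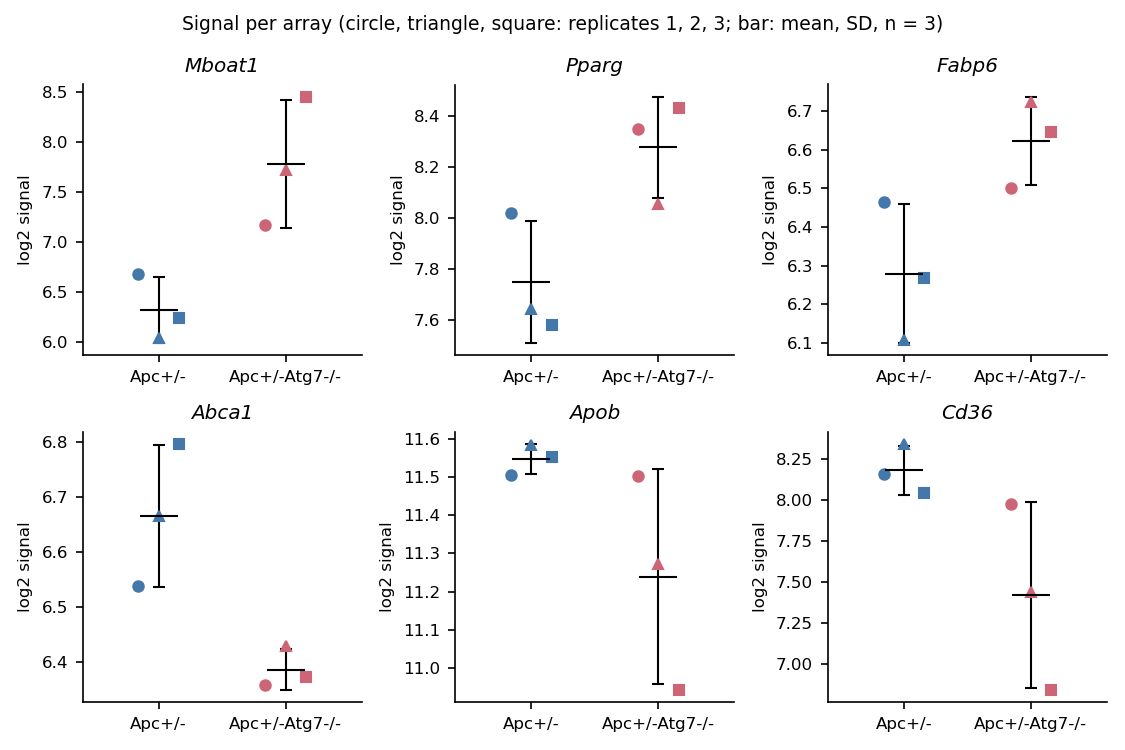
Log2 signal of the 6 members at an unadjusted p under 0.05, 1 panel per gene, with 1 point per array (circle, triangle and square for replicates 1, 2 and 3) and bars for the mean and SD of 3 arrays; the vertical axes differ and do not start at 0. In each panel the genotypes do not overlap, by a wide margin for Mboat1 and by less than the rounding of the printed values for Apob.

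Among the 6 uptake genes, 2 were higher and 4 lower. Cd36, a plasma membrane carrier of long-chain fatty acids (probe set 10528207), read 8.16, 8.34 and 8.04 in Apc+/- and 7.97, 7.44 and 6.84 in Apc+/-Atg7-/- arrays. Every Apc+/-Atg7-/- array was below every Apc+/- array, narrowly for replicate 1 and widely for replicate 3. The difference of -0.76 (SE 0.23, 95% interval -1.28 to -0.24), 1.70 times lower, had an adjusted p of 0.779 by limma. It was -0.47 without Apc+/-Atg7-/- replicate 3 and -1.04 without replicate 1 of that genotype.

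Fabp6, the ileal bile acid binding protein and thus a carrier of bile acids and not of fat, read 6.46, 6.11 and 6.27 in Apc+/- and 6.5, 6.72 and 6.65 in Apc+/-Atg7-/- arrays. The groups lay next to each other without overlap, with a difference of 0.34 (SE 0.11, 95% interval 0.09 to 0.60, adjusted p = 0.819). The abundant cytosolic carriers Fabp1 and Fabp2 lay close together in the genotypes. Fabp1, the liver-type fatty acid binding protein whose promoter motif is printed above, had means of 12.39 ± 0.12 and 12.27 ± 0.16 (SD, n = 3), a difference of -0.12 (SE 0.11). Fabp2, the intestinal-type protein, differed by -0.01 (SE 0.10). Slc27a4, a fatty acid transport protein, differed by 0.05 (SE 0.15), and Acsl5, which activates fatty acids to acyl-CoA, by -0.10 (SE 0.14).

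Chylomicron genes stood lower more often than higher, 6 of 7 measured, with a median of -0.22. Sar1b stood above 0 after further quantile normalization, median centring or array weights, and with any 1 of 3 arrays left out (replicate 1 or 2 of Apc+/-, or replicate 3 of Apc+/-Atg7-/-). Mttp, the member above 0, stood below it without Apc+/- replicate 3, and Sar1b and Apoa1 stood above 0 with arrays centred on enterocyte markers. Apob, the structural protein of the particle (probe set 10394394), read 11.50, 11.58 and 11.55 in Apc+/- and 11.50, 11.27 and 10.94 in Apc+/-Atg7-/- arrays. Apc+/-Atg7-/- replicate 1 was level with the lowest Apc+/- array to the printed decimals, and replicate 3 was well below. The difference was -0.31 (SE 0.13, 95% interval -0.60 to -0.01, adjusted p = 0.95), and without Apc+/-Atg7-/- replicate 3 it was -0.16. Mttp, which loads lipid onto Apob, differed by 0.02 (SE 0.09), and Sar1b, the coat GTPase that carries chylomicrons out of the endoplasmic reticulum, by -0.02 (SE 0.11).

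The neighbouring genes Apoa1, Apoc3 and Apoa4 encode exchangeable proteins of the particle surface. Apoc3, an inhibitor of triglyceride clearance, read 11.34, 10.94 and 10.31 in Apc+/- and 10.74, 10.38 and 9.65 in Apc+/-Atg7-/- arrays. The genotypes overlapped, and in each replicate 3 was the lowest. The difference of -0.61 (SE 0.29, 95% interval -1.26 to 0.05) had an adjusted p of 0.95 by limma, and the value ranged from -0.88 without Apc+/- replicate 3 to -0.31 without Apc+/-Atg7-/- replicate 3. Fitted by limma with the replicate number as a block, its adjusted p was 0.0461. The labels do not say whether the numbers pair the samples. Apoa4 differed by -0.22 (SE 0.12) and Apoa1 by -0.10 (SE 0.09). Pla2g12b, a secretory phospholipase-like protein that helps enlarge lipoproteins, differed by -0.34 (SE 0.18), with its highest value (9.12) in Apc+/- replicate 1 and its lowest (8.15) in Apc+/-Atg7-/- replicate 3.

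Of 5 measured sterol genes, 2 were higher and 3 lower. Abca1, which exports cholesterol to high-density lipoprotein and is a target of the oxysterol receptors, read 6.54, 6.66 and 6.80 in Apc+/- and 6.36, 6.43 and 6.37 in Apc+/-Atg7-/- arrays. The 3 Apc+/-Atg7-/- arrays lay close together (SD 0.04) and below every Apc+/- array. The difference was -0.28 (SE 0.10, 95% interval -0.49 to -0.07, adjusted p = 0.841). Npc1l1, the cholesterol importer of the brush border, differed by -0.26 (SE 0.14). Abcg5 and Abcg8, the subunits of the sterol exporter that share the printed stretch between their starts, differed by -0.05 (SE 0.15) and 0.18 (SE 0.16), and each was highest in Apc+/-Atg7-/- replicate 1, at 9.60 and 8.58. Scarb1, a lipoprotein receptor of the brush border, differed by 0.15 (SE 0.11).

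Pparg, the receptor best known from fat storage in adipocytes, was the oxidation-class member with the largest difference. Its probe set (10540897) read 8.02, 7.64 and 7.58 in Apc+/- and 8.35, 8.05 and 8.43 in Apc+/-Atg7-/- arrays. The groups did not overlap, although the gap between Apc+/- replicate 1 and Apc+/-Atg7-/- replicate 2 was narrow. The means were 7.75 ± 0.24 and 8.28 ± 0.20 (SD, n = 3), a difference of 0.53 (SE 0.14, 95% interval 0.22 to 0.84), or 1.44-fold, with an adjusted p of 0.577 by limma. With 1 array left out it was 0.45 to 0.67. Pparg lies close to the deleted gene: in RefSeq gene order on chromosome 6, only 4 protein-coding genes separate it from Atg7. Those genes, Vgll4, Tamm41, Syn2 and Timp4, differed by 0.05 (SE 0.08), 0.18 (SE 0.09), -0.08 (SE 0.11) and -0.14 (SE 0.10), and 0 of them were at an unadjusted p under 0.05 by limma. Whether the position has a part in the Pparg value was not tested.

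The other regulators had means close together in the genotypes. Ppara, the receptor that drives oxidation genes in fasting, differed by 0.02 (SE 0.13, 95% interval -0.27 to 0.31). Creb3l3, a membrane-bound factor that raises apolipoprotein genes in liver and gut, differed by -0.02 (SE 0.12, 95% interval -0.29 to 0.24).

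Among 9 genes of fatty acid oxidation, 5 were higher and 4 lower, and none was at an unadjusted p under 0.05 by limma. Acadl, the long-chain acyl-CoA dehydrogenase, read 9.45, 10.004 and 10.03 in Apc+/- and 10.03, 10.09 and 10.15 in Apc+/-Atg7-/- arrays. The genotypes did not overlap, but Apc+/- replicate 1 alone was far below the other 5 arrays. The difference was 0.26 (SE 0.15, adjusted p = 0.95), and 0.07 without that array. Cpt1a, which admits long-chain fatty acids to mitochondria, read 7.86, 8.21 and 8.11 in Apc+/- and 8.43, 8.18 and 8.25 in Apc+/-Atg7-/- arrays, a difference of 0.22 (SE 0.12, adjusted p = 0.95). Ehhadh, the peroxisomal bifunctional enzyme and a classical Ppara target, read 8.99, 8.79 and 8.42 in Apc+/- and 9.23, 8.82 and 8.96 in Apc+/-Atg7-/- arrays, a difference of 0.27 (SE 0.15, adjusted p = 0.95). Both were highest in Apc+/-Atg7-/- replicate 1, and without that array they differed by 0.15 and 0.16. The lowest values came without Apc+/- arrays, 0.124 for Cpt1a without replicate 1 and 0.115 for Ehhadh without replicate 3.

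The core mitochondrial enzymes had differences near 0. Hadha and Hadhb, the subunits of the trifunctional protein, whose genes share the region printed for Hadhb, differed by -0.04 (SE 0.11) and 0.01 (SE 0.10). Hadhb has a second probe set, which differed by 0.02. Cpt2, which completes the carnitine shuttle, differed by -0.03 (SE 0.10), and Acadm, the medium-chain dehydrogenase, by -0.03 (SE 0.09). Acadvl, the very-long-chain dehydrogenase, read 9.62, 9.84 and 9.47 in Apc+/- and 9.61, 9.51 and 9.46 in Apc+/-Atg7-/- arrays. The genotypes overlapped, with a difference of -0.12 (SE 0.11, 95% interval -0.36 to 0.13, adjusted p = 0.975), which was -0.0165 without Apc+/- replicate 2 and -0.205 without Apc+/- replicate 3. Cyp4a10, a microsomal omega-hydroxylase, had a mean under the lower quartile of all gene means and differed by 0.04 (SE 0.18).

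The remaining Ppar targets had 1 member higher and 2 lower. Vnn1, a pantetheinase, read 7.36, 7.54 and 7.74 in Apc+/- and 7.83, 6.98 and 6.74 in Apc+/-Atg7-/- arrays. Apc+/-Atg7-/- replicate 1 was the highest of the 6 and the other Apc+/-Atg7-/- arrays were the lowest. The difference was -0.36 (SE 0.24, adjusted p = 0.964), and it was -0.69 without replicate 1 and -0.14 without replicate 3 of Apc+/-Atg7-/-. Angptl4, a secreted inhibitor of lipoprotein lipase, differed by -0.07 (SE 0.18), and Plin2, the main lipid droplet coat, by 0.07 (SE 0.12). All 3 were highest in Apc+/-Atg7-/- replicate 1.

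**Figure D3:**
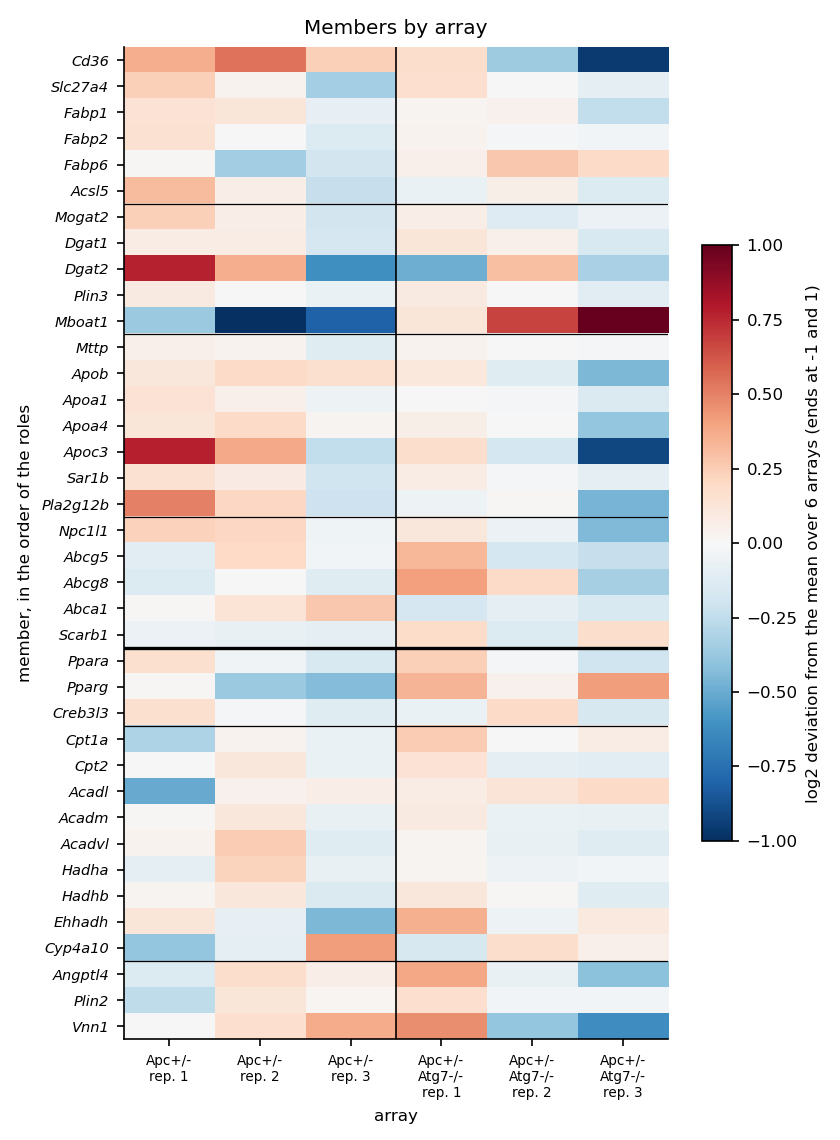
Deviation of each measured member from its mean over the 6 arrays (log2 signal, red above and blue below, colours end at -1 and 1), with genes in rows by role and arrays in columns. The column of Apc+/- replicate 1 is red for most absorption genes above the thick line, and that of Apc+/-Atg7-/- replicate 3 is blue for most of them.

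Many members shared their highest or lowest array. Apc+/- replicate 1 held the highest value for 13 of the 23 absorption members (56.5%), where 14.6% of all genes were highest. Apc+/-Atg7-/- replicate 3 held the lowest for 11 of them (47.8%), where 15.6% of all genes were lowest. The same array held the lowest for 6 of the 15 oxidation members, more than any other array. For the highest value the oxidation members had another leading array. Apc+/-Atg7-/- replicate 1 was highest for 8 of 15 (53.3%), where 11.4% of all genes were highest. That array came from a male, with Xist at 4.58 and the Y-linked Eif2s3y at 8.44, while the other 5 had Xist at 10.1 or more. Without it the oxidation median was -0.0497 and the absorption median -0.124. The part of sex in these values was not tested.

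**Figure D4:**
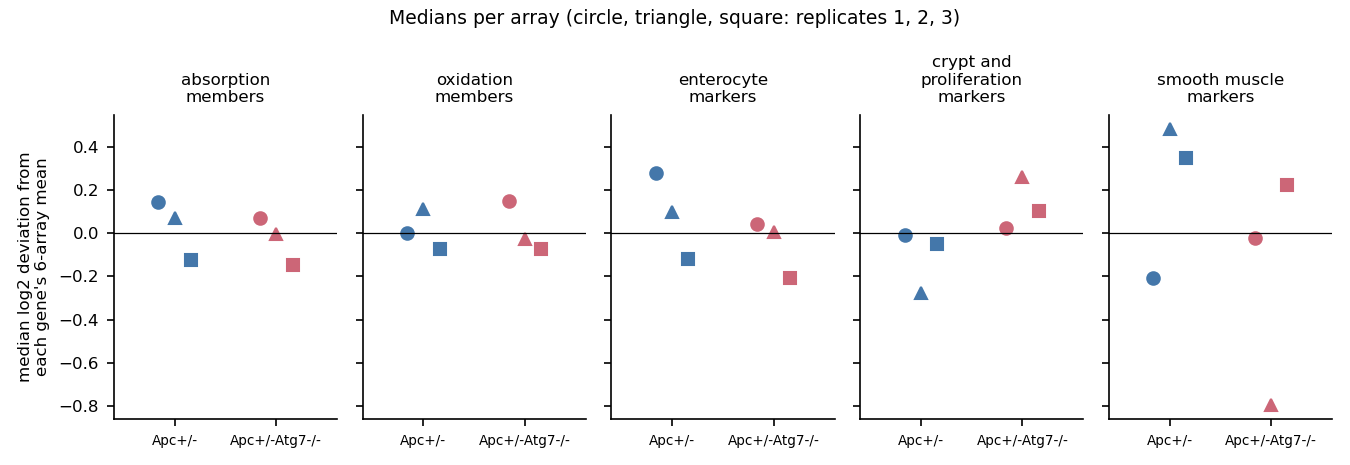
Median deviation from each gene's 6-array mean (log2 signal) per array, for both classes of members and 3 marker lists, with circle, triangle and square for replicates 1, 2 and 3 of each genotype. The absorption and enterocyte panels have the same order of arrays within each genotype.

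Markers of mature enterocytes, the cells that absorb fat, followed the same order of arrays as the absorption members. Of 15 measured enterocyte markers, 1 was higher and 14 lower in Apc+/-Atg7-/- duodenum, with a median of -0.17, and all 15 overlapped between genotypes. Their median deviation was 0.28, 0.10 and -0.12 in Apc+/- replicates 1 to 3 and 0.04, 0.00437 and -0.21 in Apc+/-Atg7-/- replicates 1 to 3. That of the absorption members was 0.14, 0.07 and -0.12, then 0.07, -0.00356 and -0.15. The log2 of the summed enterocyte signal was 15.1 to 15.5 in Apc+/- and 15.1 to 15.2 in Apc+/-Atg7-/- arrays. When each array was centred on the mean of its enterocyte markers, a choice made after the data were seen, the absorption median was 0.12 and the oxidation median 0.21, beside 0.18 for all genes. Such centring adds the same amount to every gene's difference, so it turns the sign of members near 0 by construction, here 8 of 23 absorption and 6 of 15 oxidation members. In whole tissue, fewer cells of a type and less RNA per cell cannot be told apart.

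Markers of other cells of dissected duodenum are given for comparison. Of 6 crypt and proliferation markers 5 were higher (median 0.24). The 3 at an unadjusted p under 0.05 by limma were Mki67, Top2a and Bub1b, where 2.38% of all genes were higher at that threshold. Olfm4, Ascl2 and Lgr5 differed by 0.18, 0.02 and -0.14. All 6 smooth muscle markers were lower (median -0.38), lowest in Apc+/-Atg7-/- replicate 2. Lower at an unadjusted p under 0.05 by limma were Des of smooth muscle (-0.49), Cidec of adipocytes (-0.43) and Cyp2e1 of hepatocytes (-0.33). Of all genes, 2.73% were lower at that threshold. Adipocytes also express Cd36 and Pparg, and macrophages Cd36, Pparg and Abca1. Of 7 adipocyte markers 2 were higher and 5 lower (median -0.13), with a log2 summed signal of 9.77 to 9.98 in Apc+/- and 9.63 to 9.69 in Apc+/-Atg7-/- arrays. Of 6 macrophage markers 1 was higher and 5 lower (median -0.11), with sums of 10.1 to 10.4 and 9.93 to 10.2. The adipocyte markers Fabp4, a fatty acid carrier, and Cidec, a droplet protein, were lower without overlap (-0.13 and -0.43). Of all genes, 5.23% were lower without overlap. The other 5 adipocyte markers overlapped: Adipoq, Retn and Lipe differed by -0.23, -0.10 and -0.17, and Plin1 and Lep by 0.01 and 0.07. Array signals have no true zero, so no marker could be called absent. Medians were 0.15 for 6 markers of proximal intestine (5 higher), -0.06 for 4 of ileum (2 higher), -0.10 for 6 of pancreatic acini (2 higher) and 0.01 for 5 of hepatocytes (3 higher). Levels of different probe sets cannot be ranked, so the tissue label could not be settled from them: the 6 proximal markers averaged 6.19 (Cubn) to 8.45 (Gata4) in Apc+/- duodenum and the 4 ileal ones 5.27 (Slc10a2) to 10.2 (Slc51b). The part of any of these cells in the members' values was not tested.

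Wider lists of the same pathways were read alongside. Of 33 further absorption genes 29 were measured, 8 higher and 21 lower, with a median of -0.04. By limma 0 passed an adjusted p of 0.05 and 1 was lower at an unadjusted p under 0.05, where 2.73% of all genes were. That gene was Nr1h3, the oxysterol receptor Lxr alpha that drives Abca1, which read 7.30, 7.15 and 7.14 in Apc+/- and 6.79, 7.03 and 6.84 in Apc+/-Atg7-/- arrays. Nr1h3 was lower without overlap, as Abca1 and 5.23% of all genes were, by -0.31 (SE 0.10, adjusted p = 0.813). The sterol genes Abcg1, Abcg5 and Abcg8 differed by -0.16, -0.05 and 0.18, with overlap between genotypes. Whether the values of Nr1h3 and Abca1 are linked was not tested. Slc27a2, a further fatty acid transport protein, differed by -0.39 (SE 0.20), and Lpin2, a phosphatidate phosphatase, by 0.21 (SE 0.12). Without Apc+/-Atg7-/- replicate 1 they differed by -0.615 and 0.114, and without Apc+/-Atg7-/- replicate 3 by -0.228 and 0.333.

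Of 37 further oxidation genes and Ppar targets 31 were measured, 9 higher and 22 lower, with a median of -0.10. Again 0 passed an adjusted p of 0.05 by limma and 1 was lower at an unadjusted p under 0.05, where 2.73% of all genes were. That 1 gene was Ppard, the Ppar receptor abundant in gut epithelium, which read 7.84, 7.74 and 7.92 in Apc+/- and 7.71, 7.57 and 7.34 in Apc+/-Atg7-/- arrays. Its difference of -0.29 (SE 0.11, adjusted p = 0.924) lay opposite to that of Pparg, and was -0.19 without Apc+/-Atg7-/- replicate 3. Eci1, an isomerase for unsaturated acyl chains, differed by -0.21 (SE 0.11) and Crat, the carnitine acetyltransferase, by -0.19 (SE 0.10). Eci1 differed by -0.125 without Apc+/-Atg7-/- replicate 3, and Crat by -0.121 without Apc+/- replicate 2.

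For the targeted gene, Atg7, the Apc+/- arrays had a mean of 7.16 ± 0.11 and the Apc+/-Atg7-/- arrays 6.63 ± 0.16 (SD, n = 3). All 3 Apc+/-Atg7-/- arrays lay below, by -0.53 (SE 0.11, adjusted p = 0.242), and probes outside the deleted part could still find transcript. Array medians lay between 6.43 and 6.56, arrays correlated pairwise at 0.989 to 0.994 across probe sets, and 3 arrays per genotype limit the precision.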

How the data were processed

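RNA from 6 samples of duodenum was labelled and hybridised to Affymetrix whole-transcript arrays, 1 array per sample. The values are log2 signals that the authors deposited after RMA, with RMA and Partek named, without versions, per the submitters' processing notes. No source used here gives the log base, which was taken from the range of values (2.40 to 13.28). RMA as usually run equalises arrays, which removes a shift shared by all transcripts, and array signal compresses differences of dim and very bright genes. The deposited arrays were not fully equal, with medians of 6.43 to 6.56. No detection calls, scan dates or batches were used.

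Of 28853 probe sets, 21789 carry 1 gene symbol in the platform annotation. The brightest probe set by mean stood for each of 19938 genes, of which 19855 were found in RefSeq's table of GRCm38.p6. The comparison used limma (version 3.58.1, R 4.3.3) with lmFit, eBayes and a two-sided test. Differences are Apc+/-Atg7-/- minus Apc+/-, and p-values were adjusted over all genes by Benjamini-Hochberg. The script was tested on simulated data. Figures were drawn with matplotlib 3.10.9.

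The members and the 18 gene lists were chosen with earlier results of these data known. Full values are given for members at an unadjusted p under 0.05, for members whose genotypes do not overlap and for the 6 smallest p in each class. From each wider list the genes at an unadjusted p under 0.05 are named, with at least the 3 smallest p. Vgll4, Tamm41, Syn2, Timp4, Abcg1, Lct, Des, Cyp2e1, the adipocyte markers and the crypt and proliferation markers were named after their values were seen. The alternatives were a replicate block, further quantile normalization, median centring, trend and robust moderation, array weights, leaving out genes under the lower quartile of mean signal, averaging probe sets, leaving out each array, and, added after seeing the data, centring on enterocyte markers.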

Additional observations from a re-analysis of the deposited data

How the results depend on the processing

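Same-numbered arrays deviated together at r = 0.15, -0.07 and 0.24, and differently numbered arrays at r = -0.31 to 0.18. The labels do not say whether the numbers pair the samples, and so few arrays cannot settle it. With the replicate block, 44 genes passed an adjusted p of 0.05 instead of 22. Of the absorption members 1 then passed (Apoc3, adjusted p = 0.0461) instead of 0, and the members at an unadjusted p under 0.05 numbered 8 for absorption (5 without the block) and 2 for oxidation (1 without it). Centring on enterocyte markers gave 1 absorption member past an adjusted p of 0.05 (Mboat1, difference 1.67, adjusted p = 1.1e-10), 67 genes in all, 3 absorption and 3 oxidation members at an unadjusted p under 0.05, and class medians of 0.12 and 0.207. There limma's total degrees of freedom were 79750 instead of 9.70, so that nearly 1 variance served all genes, and Acadvl (0.084) and Crat (0.0109) stood above 0. Mboat1's adjusted p ran from 1.1e-10 to 0.708 over all alternatives. Median centring gave 3 oxidation members at an unadjusted p under 0.05, and array weights gave 2. With each array left out in turn, 0 members of either class passed an adjusted p of 0.05, and 2 to 27 of all genes did. Absorption members at an unadjusted p under 0.05 then numbered 3 to 7 and oxidation members 1 to 2, with class medians of -0.147 to 0.0191 and -0.0513 to 0.0692. The share of all genes at an unadjusted p under 0.05 is not given for any alternative. The counts of members at that threshold are therefore not read as results about the members. The cause of these shifts was not tested. Cyp4a10 was not fitted where genes under the lower quartile of mean signal were left out. Signal over background is not known here, so differences of dim genes such as Cyp4a10 may be understated.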
